A study of Mus musculus with 4 samples.

Results

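Hox genes encode homeodomain transcription factors that lie in 4 clusters, HoxA to HoxD. Within each cluster the genes are ordered by paralogue group, and genes of the same group in different clusters descend from a common ancestor gene. In the embryo, Hox genes set position along the body axis. In bone marrow, genes of the HoxA and HoxB clusters are known for their activity in stem cells and early progenitors and for its loss as blood cells mature. The enzyme KMT2A (MLL1) and its partners keep the genes active, Polycomb complexes keep them silent, and many Hox proteins bind DNA together with MEIS and PBX proteins, the TALE cofactors.

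The Hox genes were taken as every gene of the array whose symbol is Hox, a cluster letter from a to d and a number, on a probe set that the platform annotation pairs with only that gene. This gave 37 of the 19938 genes measured in all. There were 10 genes of HoxA and 9 each of HoxB, HoxC and HoxD, each with 1 probe set. Hoxb8 shared its probe set with Hoxb7 and was not among them.

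RNA came from bone marrow cells of C57BL/6 (B6) mice aged 8 weeks sorted for the absence of lineage markers and the presence of c-Kit and Sca-1 (LSK cells). This gate holds haematopoietic stem cells and multipotent progenitors. There were 2 whole-transcript arrays of WT mice and 2 of mice with the genotype label Hif1a-/-, numbered 1 and 2 in each genotype as biological replicates. Hif1a encodes the oxygen-regulated subunit of HIF-1. The labels name neither the Cre driver, if any, nor the deleted part of Hif1a, and do not say whether RNA of several mice was pooled. A Hif1a probe set can lie outside a deleted part and is no check of the label, so Hif1a-/- below means the arrays with that label. All values are log2 signals. No detection calls were used, and array number, not depth, limits the precision.

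Before any Hox result, the arrays numbered 2 stood apart from those numbered 1 in both genotypes. Among marker lists, all 14 neutrophil and granule genes had a higher mean in number 2. Their summed linear signal was 33056 to 39837 in number 1 and 76274 to 98070 in number 2. The sum over 10 mast cell and basophil genes was 8211 to 9455 against 20783 to 21948, and over 9 monocyte and macrophage genes 10579 to 10762 against 26616 to 27106. Erythroid sums (2466 to 2580 against 3901 to 3906) and T and NK cell sums (8486 to 8937 against 10021 to 10892) were higher too. Megakaryocyte sums were lower (3570 to 3675 against 2186 to 2998), and B cell sums were lower in number 2 within each genotype. The 10 measured LSK and stem cell genes summed to 23447 to 25800 in number 1 and 6725 to 11550 in number 2, with 9 of 10 lower in the mean. Kit, which encodes the c-Kit receptor used in the sort, had log2 signals of 12.57 and 11.51 in WT 1 and WT 2, and of 12.37 and 11.32 in Hif1a-/- 1 and Hif1a-/- 2. Pairs of values below follow this order. Ly6a, the Sca-1 gene, was not measured by the rule used here. Hox genes are therefore compared between the genotypes and also between the numbers, which are replicate numbers from the sample titles and no condition of the study. Both comparisons use the same 4 arrays.

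The sequences of the members on which the results turn come first. The HoxA genes from Hoxa2 to Hoxa10 had lower signals in both arrays numbered 2 than in both numbered 1, and Hoxa11 and Hoxa13 did not. In the RefSeq gene table the microRNA gene Mir196b lies between Hoxa9 and Hoxa10. It was measured as well and is described after the values were seen. The mature 5′ strands of the microRNAs of the Hox clusters, from RefSeq (GRCm38.p6), are shown to compare their seeds, bases 2 to 8, in capitals.
mmu-miR-196b-5p (HoxA, chr6:52230129-52230150, minus strand): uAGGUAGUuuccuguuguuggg
mmu-miR-196a-5p (HoxB copy, chr11:96265187-96265208, plus strand): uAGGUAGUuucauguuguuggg
mmu-miR-10a-5p (HoxB, chr11:96317186-96317208, plus strand): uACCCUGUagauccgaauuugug
mmu-miR-10b-5p (HoxD, chr2:74726074-74726096, plus strand): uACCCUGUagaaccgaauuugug
A second copy with the same miR-196a-5p sequence, Mir196a-2, lies in HoxC. The miR-196 sequences share the seed AGGUAGU and differ by 1 substitution, A12C, from miR-196a-5p to miR-196b-5p, counted from the 5′ end. The miR-10 sequences share ACCCUGU and differ by U12A from miR-10a-5p to miR-10b-5p. The array probe sets report the transcripts of these microRNA genes and do not separate mature strands.

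The 250 bases before the start sites of 4 HoxA genes, from the RefSeq promoter table (GRCm38.p6), are shown because 3 of these genes were called lower together and the other, Hoxa11, lies in the same cluster and was not. Capitals mark matches, on either strand, to the HIF core (ACGTG or GCGTG), the MEIS site TGACAG, the PBX-HOX site TGATTNAT and the CDX site TTTATG.
Hoxa5 (chr6:52204588-52204837, minus strand): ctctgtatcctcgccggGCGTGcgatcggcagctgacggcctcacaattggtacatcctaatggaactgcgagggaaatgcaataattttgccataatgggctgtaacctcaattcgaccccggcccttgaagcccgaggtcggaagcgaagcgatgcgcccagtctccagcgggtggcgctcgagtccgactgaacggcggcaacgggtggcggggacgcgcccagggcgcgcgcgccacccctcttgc
Hoxa7 (chr6:52218574-52218823, minus strand): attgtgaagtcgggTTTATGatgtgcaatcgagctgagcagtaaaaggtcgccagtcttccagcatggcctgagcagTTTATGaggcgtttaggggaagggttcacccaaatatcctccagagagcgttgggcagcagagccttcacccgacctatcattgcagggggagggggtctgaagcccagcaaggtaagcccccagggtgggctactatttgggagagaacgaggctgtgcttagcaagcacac
Hoxa9 (chr6:52227371-52227620, minus strand): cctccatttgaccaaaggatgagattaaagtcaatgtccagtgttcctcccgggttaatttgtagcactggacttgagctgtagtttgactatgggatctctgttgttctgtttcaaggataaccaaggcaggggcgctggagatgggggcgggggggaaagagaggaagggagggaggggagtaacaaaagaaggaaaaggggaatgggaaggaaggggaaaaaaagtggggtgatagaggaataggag
Hoxa11 (chr6:52245811-52246060, minus strand): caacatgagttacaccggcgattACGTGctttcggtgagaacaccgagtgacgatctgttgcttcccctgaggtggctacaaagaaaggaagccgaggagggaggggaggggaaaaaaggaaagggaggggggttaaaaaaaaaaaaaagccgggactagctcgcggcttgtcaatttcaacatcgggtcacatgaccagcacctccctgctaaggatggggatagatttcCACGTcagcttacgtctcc
A window was found for 21 of the 37 Hox genes, 9 of them in HoxA. Each Hox gene entered with only the window that starts nearest the 5′ end of the gene. The share over all windows takes every window, so the shares are formed by different rules. The HIF core was in 8 of 21 Hox windows and in 4 of 9 HoxA windows, beside 38.6% of all 32851 windows of this length in the table. Hoxa5 held 1 match, 233 bases before its start, and Hoxa11 held 2, at 227 and 19 bases. The CDX site was in 4 of 21 Hox windows (Hoxa7, Hoxd3, Hoxd4 and Hoxd11), beside 10.8% of all windows. In Hoxa7 it lay at 236 and 173 bases. Hoxa9 held none of the 4 motifs. The MEIS site was in 2 HoxA windows (Hoxa2 and Hoxa3) and in 15.9% of all windows, and the PBX-HOX site in 1 (Hoxa2) and in 2.82%. ACGTG can lie within the E-box CACGTG. A match is a description of the letters and not a binding site.

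Some HoxA and HoxB genes, and no gene of HoxC or HoxD, gave signals over the 95th percentile of a background list. Background was read from 78 measured homeobox genes known from other tissues, such as Dlx, Nkx, Lhx and Pou4f genes. The 95th percentile of their signals was 9.17 and 9.13 in WT and 9.23 and 9.20 in Hif1a-/-. Above it on at least 1 array were 6 Hox genes, 4 of HoxA (Hoxa4, Hoxa6, Hoxa7 and Hoxa9) and 2 of HoxB (Hoxb1 and Hoxb3). The other 31, with all 18 genes of HoxC and HoxD, were below it on every array. Over all genes, 8590 of 19938 were above the bar on at least 1 array and 6380 on all 4. Of the 78 reference genes themselves, 6 were above it on at least 1 array and 3 on all 4. The highest HoxB signal was 9.34, under the highest reference signal of each array (9.41 to 9.58). A probe set's signal also depends on its probes, so the percentile is a coarse bar, a signal under it does not show that a gene is silent, and signals of different genes are not ranked.

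Hoxb3, of the HoxB genes active in stem cells, was the only Hox gene above the bar on all 4 arrays. It gave 9.34 and 9.14 in WT, and 9.34 and 9.23 in Hif1a-/-. Its margin over the bar was small on every array. Hoxb1, known for the hindbrain, gave 9.20, 9.07, 9.21 and 9.27 in the same order, above the bar on 2 arrays. With the 90th percentile as the bar, 2 genes were above on all arrays, and with the highest reference signal 0 were. With 1015 olfactory receptor genes as the reference there were 9 (Hoxa4, Hoxa6, Hoxa7, Hoxa9, Hoxb1, Hoxb3, Hoxb7, Hoxb9 and Hoxd11), and 3 were above the median of all genes (Hoxa4, Hoxb1 and Hoxb3). The count thus depends on the bar, while HoxC genes were in 0 of these sets.

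By paralogue group, genes above the bar on at least 1 array came from the anterior groups 1 and 3, the central groups 4, 6 and 7, and the posterior group 9. In group 9, Hoxa9 was above it on 3 arrays, and Hoxb9, Hoxc9 and Hoxd9 on 0. None of the 12 genes of groups 10 to 13 was above it on any array. These include Hoxa13 and Hoxd13 of the limb, Hoxb13 of the prostate and Hoxc13 of the hair follicle.

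**Figure D1:**
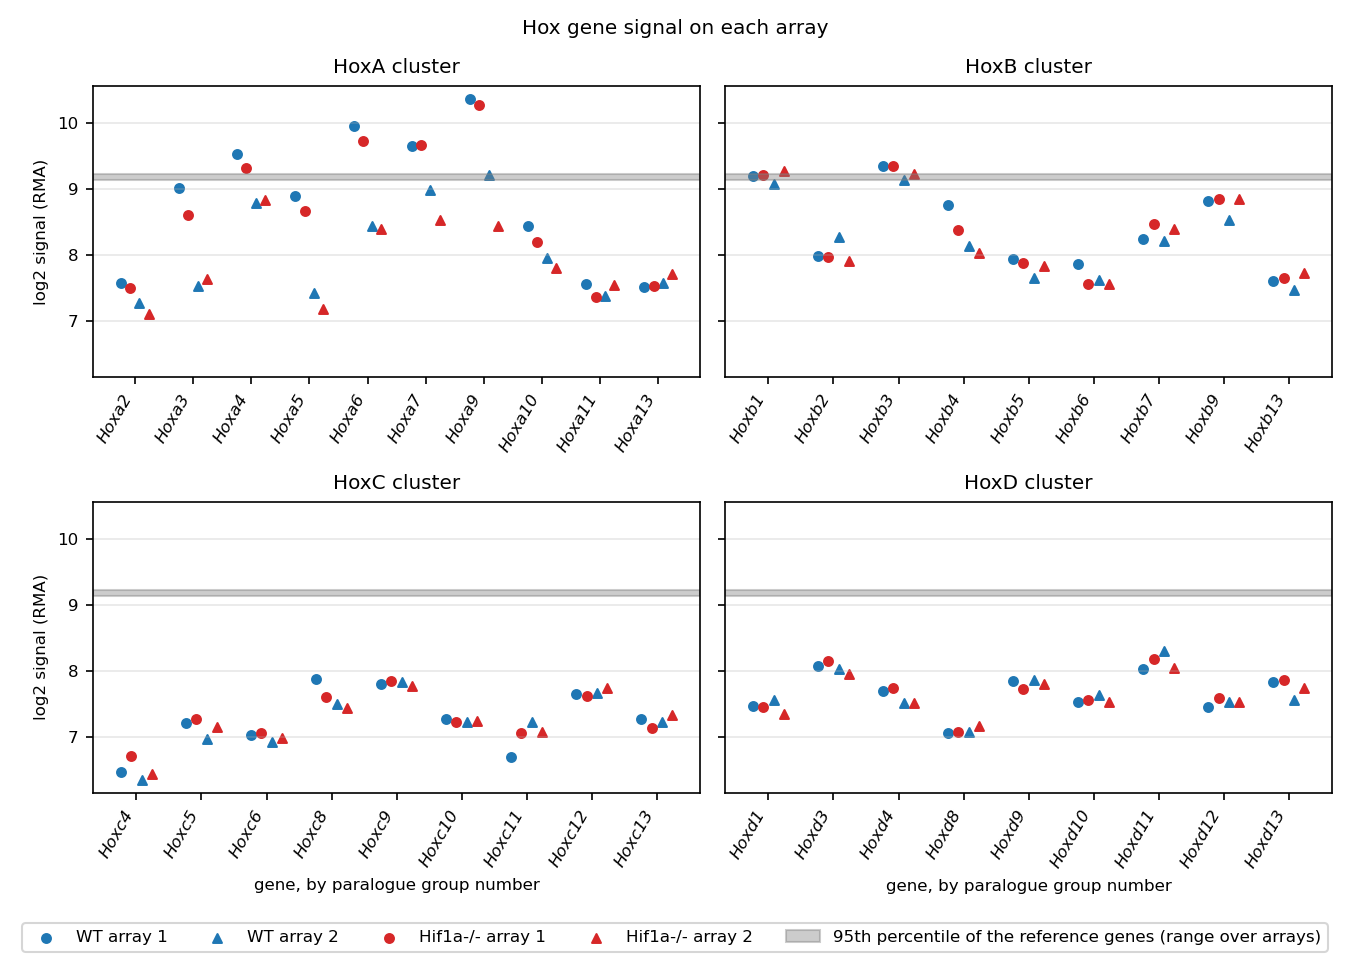
Log2 RMA signal (y axis) of the 37 Hox genes by cluster and paralogue group (x axis), 1 point per array. Blue is WT, red is Hif1a-/-, circles are number 1 and triangles number 2, and the grey band is the 95th percentile of the reference genes over the 4 arrays (9.13 to 9.23). Circles and triangles part in HoxA from Hoxa3 to Hoxa10, and no point of HoxC or HoxD reaches the band.

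The Hox genes also differed in how far they spread over the 4 arrays. The range from the lowest to the highest array had a median of 0.94 log2 units in HoxA, 0.28 in HoxB, 0.20 in HoxC and 0.19 in HoxD. Over all genes the median range was 0.34 and its 90th percentile 0.87. Hoxa9 ranged over 1.92 log2 units and Hoxc10 over 0.04. Outside HoxA the widest range was that of Hoxb4, at 0.73.

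HoxA genes were lower in the arrays numbered 2. Of the 37 Hox genes, 6 passed an adjusted p of 0.05 in limma, all lower in number 2 and all in HoxA (Hoxa3, Hoxa4, Hoxa5, Hoxa6, Hoxa7 and Hoxa9). Over all genes 6.74% were called, 2.93% lower and 3.81% higher. In HoxB, HoxC and HoxD 0 of 27 genes were called in limma, with fold ratios between the numbers of at most 1.41. Of these 27 genes, 20 were below the median of the reference genes (8.07 to 8.22) on every array, beside 3 of 10 in HoxA. At such signals a fall is hard to see, so the contrast between the clusters is limited. Hoxa10, beside the called genes, did not pass.

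Hoxa9, needed for normal numbers of stem and progenitor cells and often active in acute leukaemia, gave 10.36 and 9.21 in WT. It gave 10.28 and 8.44 in Hif1a-/-. Both arrays numbered 2 lay below both numbered 1, by 1.15 log2 units or more within a genotype. The means were 10.32 ± 0.06 (SD, n = 2) in number 1 and 8.83 ± 0.55 in number 2, a 2.82-fold lower signal (log2 difference −1.49, SE 0.25, adjusted p = 0.0271 in limma).

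Hoxa5, whose forced expression is known to favour myeloid over erythroid fate, gave 8.89 and 7.42 in WT and 8.67 and 7.19 in Hif1a-/-. The difference was nearly the same in both genotypes, −1.47 and −1.48, and the mean was 2.78-fold lower (SE 0.14, adjusted p = 0.00581 in limma). Hoxa6, next to Hoxa5, gave 9.95 and 8.44, and 9.72 and 8.39. Its mean was 2.68-fold lower in number 2 (log2 difference −1.42, SE 0.13, adjusted p = 0.00480 in limma). For both genes the arrays of each number lay close together and far from those of the other.

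Hoxa3, known for thymus and parathyroid formation, gave 9.01 and 7.53 in WT and 8.61 and 7.64 in Hif1a-/-, and was 2.34-fold lower in number 2 (SE 0.16, adjusted p = 0.0135 in limma). Hoxa7, a gene that like Hoxa9 can drive leukaemia together with Meis1, gave 9.64 and 8.99, and 9.67 and 8.53 (1.86-fold lower, SE 0.17, adjusted p = 0.0401). Hoxa4 gave 9.53 and 8.79, and 9.31 and 8.83 (1.53-fold lower, SE 0.13, adjusted p = 0.0485). In each of these genes the 2 numbers did not overlap. The Hoxa4 call was the closest to the threshold. It ended with the genotype as a second term in the fit (adjusted p = 0.0846) and under median centring, cyclic loess, a trended, robust fit or without the dimmest genes.

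Hoxa10, known to regulate self-renewal of stem cells, gave 8.44 and 7.96 in WT and 8.20 and 7.80 in Hif1a-/-. Its numbers did not overlap, yet the difference of −0.44 (SE 0.14) did not pass (adjusted p = 0.143 in limma). Hoxa2, of the head and neck, differed by −0.35 (SE 0.12, adjusted p = 0.171). At the posterior end, Hoxa11 gave 7.56 and 7.38, and 7.35 and 7.54, a difference of 0.00 with a 95% interval of −0.32 to 0.33. Hoxa13 gave 7.51 and 7.58, and 7.52 and 7.71 (difference 0.13, interval −0.16 to 0.41). The lower signals thus lay in a run of neighbouring genes, with Hoxa11 and Hoxa13 of the limb and genital tract outside it. Hoxa11 and Hoxa13, like Hoxa2, were below the median of the reference genes on every array. A fall is hard to see at such signals, so where the run ends is not settled.

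Mir196b, inside that run, was lower too. It gave 8.52 and 7.52 in WT and 8.17 and 7.60 in Hif1a-/-. Number 2 was 1.73-fold lower (log2 difference −0.79, SE 0.15, adjusted p = 0.0397 in limma), and the call ended with the genotype as a second term (adjusted p = 0.0613), without WT array 1 (0.342) and without Hif1a-/- array 1 (0.0813). The copies of the same seed in the other clusters did not pass, with −0.24 for Mir196a-1 (adjusted p = 0.425) and 0.20 for Mir196a-2 (adjusted p = 0.408). Mir10a and Mir10b differed by −0.18 and −0.25 and did not pass either. Among other noncoding transcripts of HoxA, Hottip, beyond Hoxa13, differed by 0.03 and Hoxaas2, between Hoxa2 and Hoxa3, by −0.09. Mir196a-1, Mir196a-2, Mir10a, Mir10b, Hottip and Hoxaas2 were all below the median of the reference genes on every array. Mir196b was above it on 1 array. A fall is hard to see at such signals, so the contrast with Mir196b is limited.

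In HoxB, Hoxb4, which expands stem cells when overexpressed, gave 8.76 and 8.13 in WT and 8.38 and 8.03 in Hif1a-/-. Its difference of −0.49 (SE 0.16) was the most negative outside HoxA and did not pass (adjusted p = 0.156 in limma). Hoxb5, known as a marker of long-term stem cells, differed by −0.17 (SE 0.12), with 7.93 and 7.65 in WT and 7.88 and 7.83 in Hif1a-/-. Hoxb3 differed by −0.16 (SE 0.11). The highest values in the other direction were 0.27 for Hoxc11 (SE 0.16), 0.13 for Hoxa13 and 0.11 for Hoxb2 (SE 0.15), and 0 of 37 genes were called higher in limma.

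Counted without a test, 18 Hox genes had both arrays numbered 2 below both numbered 1, and 3 had them above. The shares over all genes were 27.2% and 20.4%. By cluster the lower ones were 8 of 10 in HoxA, 3 of 9 in HoxB, 4 of 9 in HoxC and 3 of 9 in HoxD. The median difference was −0.75 in HoxA, −0.13 in HoxB, −0.02 in HoxC and 0.01 in HoxD, and −0.02 over all genes. By paralogue group, 11 of 14 central genes (groups 4 to 8), 4 of 7 anterior genes and 3 of 16 posterior genes were lower without overlap, with medians of −0.20, −0.12 and 0.01. Below the median of the reference genes on every array were 8 of 14 central, 3 of 7 anterior and 12 of 16 posterior genes. The contrast between these groups is limited by such dim signals.

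**Figure D2:**
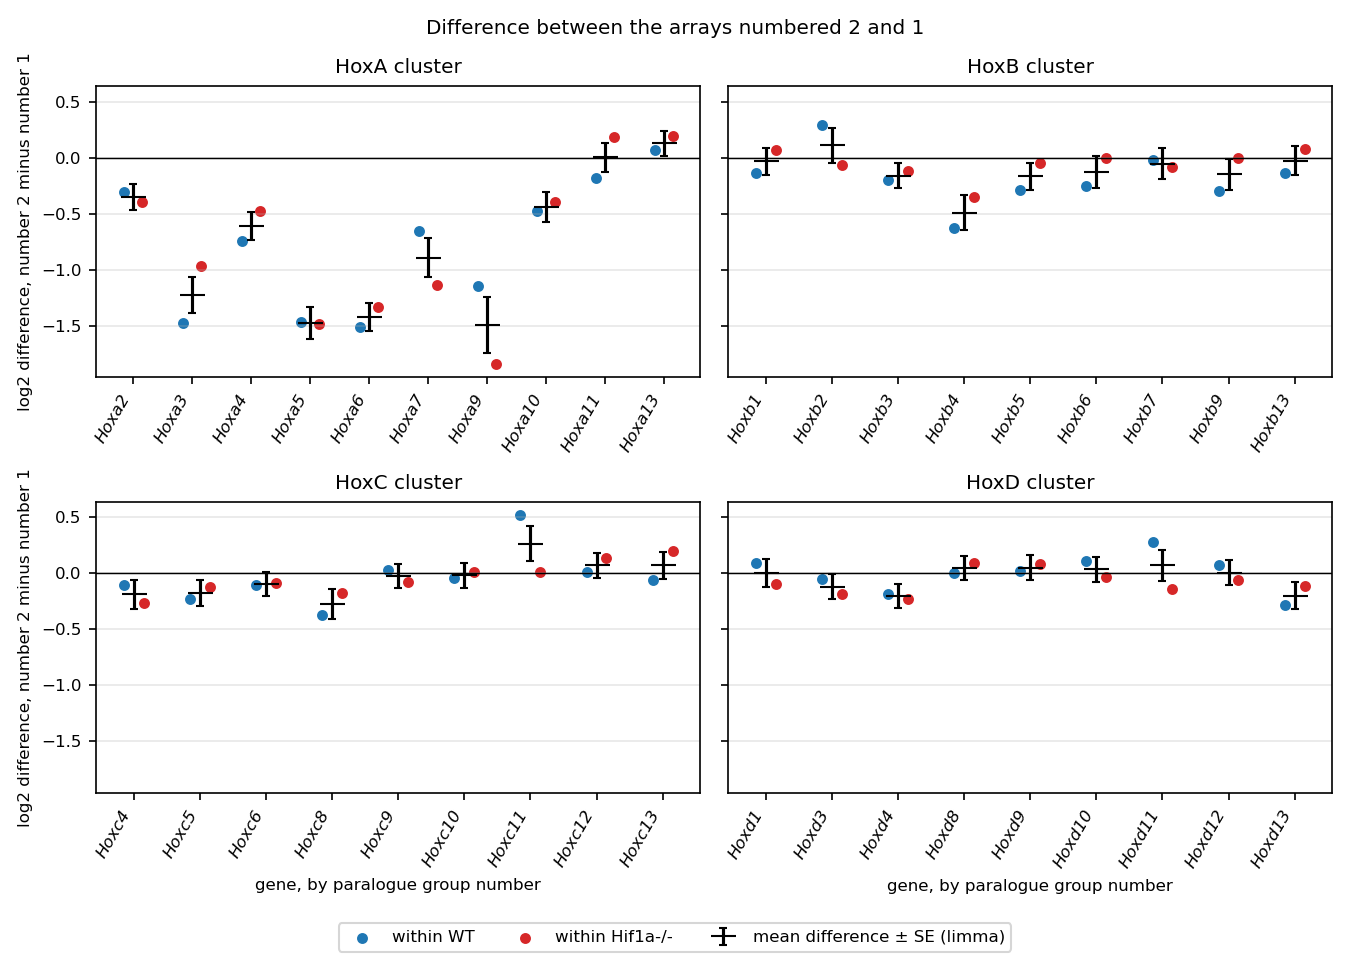
Log2 difference between arrays numbered 2 and 1 (y axis) for the 37 Hox genes by cluster (x axis). Blue points are WT, red points Hif1a-/-, and black bars the limma mean with its SE. The differences lie between −1.84 and −0.40 from Hoxa3 to Hoxa10 and near 0 at Hoxa11, Hoxa13 and most genes of the other clusters.

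The number of calls moved with the array left out, and so did that over all genes, 1344 in the full fit. Without WT array 1, 2 of the 6 called genes passed (Hoxa5 and Hoxa6), and without Hif1a-/- array 1 3 did (Hoxa3, Hoxa5 and Hoxa6). Over all genes these fits called 319 and 458. Without WT array 2 there were 9, the same 6 with Hoxa2, Hoxa10 and Hoxb4, while 4661 of all 19938 genes were called. All 6 genes kept a negative difference in each of these fits. Adjusted over every probe set of the table instead of the named genes, 2 passed (Hoxa5 and Hoxa6).

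The lower HoxA signals in number 2 came with lower sums of the stem cell list. The sums of the neutrophil, mast cell and monocyte lists given above were higher there. Of the 10 stem cell genes, 4 were below the reference bar on all 4 arrays. The counts were 0 of 14 for the neutrophil, 2 of 10 for the mast cell and 1 of 9 for the monocyte list. A linear sum is led by the brightest genes of its list. The part of the cell types in the HoxA signals was not tested. In these bulk samples, fewer cells of a type and less RNA per cell cannot be told apart. Mesenchymal stromal cells of the marrow are also known to express Hox genes. Of 11 stromal markers measured, 5 had a higher and 6 a lower mean in number 2, with a median difference of −0.02, and 9 were below the reference bar on all 4 arrays. Their summed signal was 4076 to 4604 in number 1 and 2950 to 3005 in number 2, and Pdgfrb (−1.90) was the only one called in limma. Of 8 endothelial markers 5 had a higher and 3 a lower mean, with a median of 0.22, and 5 were below the bar on all arrays. Cdh5 was called higher (0.71) and Emcn (−2.81) and Tie1 (−1.45) lower, and the summed signal was 4468 to 5360 in number 1 and 3003 to 3249 in number 2. The part of these cells in the result was not tested either.

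**Figure D3:**
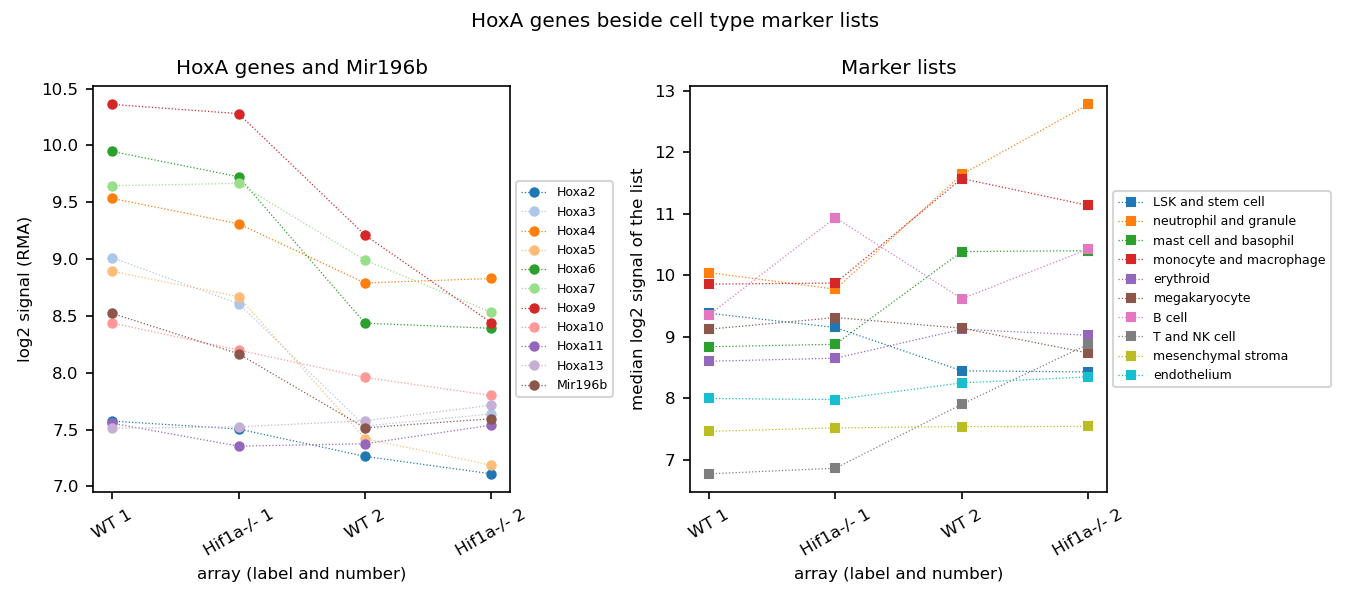
Left, log2 RMA signal (y axis) of the 10 HoxA genes and Mir196b on each array (x axis). Right, the median log2 signal of each marker list on the same arrays, with dotted lines joining points of a gene or list only to guide the eye. The neutrophil and granule median is 10.04 and 9.77 in the arrays numbered 1 and 11.64 and 12.77 in those numbered 2, where Hoxa9 is lower.

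Among TALE cofactors, Meis1, the main partner gene of Hoxa9 in stem cells and leukaemia, was 4.87-fold lower in number 2. It gave 11.40 and 9.26 in WT and 11.11 and 8.68 in Hif1a-/- (log2 difference −2.28, SE 0.22, adjusted p = 0.00574 in limma). Meis1 also belongs to the LSK and stem cell list above and to the list of HOXA9- and MEIS1-linked genes below. Pbx4 was 1.51-fold lower (adjusted p = 0.0412), a call that ended with the genotype as a second term (adjusted p = 0.0843), without either array numbered 1, and under quantile normalization, cyclic loess or a trended, robust fit. The other 6 of 8 measured cofactors did not pass, with 0.53 for Pbx3 (SE 0.17) and −0.18 for Pbx2 (SE 0.12). The 2 calls stand beside 2.93% of all genes called lower, a difference of few genes in a list of this size.

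Genes of the MLL and DOT1L complexes, which keep Hox genes active, gave 0 calls of 14 in limma, and 11 had a negative difference. Over all genes 6.74% were called and 11052 of 19938 had a negative difference, so 0 calls in a list of this size is near that background. Kmt2a itself was at 11.86 and 10.64 in WT and 11.58 and 11.13 in Hif1a-/- (difference −0.84, SE 0.20, adjusted p = 0.0701). The list's median was −0.28. Of 18 Polycomb and H3K27 demethylase genes 2 passed, both lower, beside 2.93% of all genes called lower, a difference of few genes in a list of this size. Phc1, a subunit of the PRC1 complex, was 1.78-fold lower (adjusted p = 0.0283), and Cbx2, a reader of the Polycomb mark, 1.70-fold lower (adjusted p = 0.0285), a call that ended with the genotype as a second term (adjusted p = 0.0520). The median of that list was −0.19. The CDX factors, activators of Hox genes in the embryo, differed by −0.17 (Cdx1), −0.01 (Cdx2) and 0.07 (Cdx4). In limma 0 of 3 passed, beside 6.74% of all genes, and 0 calls in so short a list is near that background. The background list of homeobox genes includes CDX factors, and all 3 were below the reference bar on every array. Cdx4 gave only 5.40 to 5.67. A difference is hard to see at such signals, so these values say little about activators of Hox genes.

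Of 13 measured genes linked to HOXA9 and MEIS1, 6 were called lower in number 2 and 1 higher, beside 2.93% and 3.81% of all genes. The transcription factor genes Erg and Sox4 were 2.73-fold and 2.70-fold lower (adjusted p = 0.00381 and 0.00729 in limma), and Meis1, the survival gene Bcl2, the cytokine receptor gene Flt3 and Dach1 were the others. Id2, which encodes an inhibitor of E proteins, gave 9.47 and 12.63 in WT and 10.18 and 12.81 in Hif1a-/-, and was 7.43-fold higher (log2 difference 2.89, SE 0.24, adjusted p = 0.00430). The median of the list was −0.84. Phc1, Cbx2, Flt3, Bcl2 and Dach1 lost their calls without WT array 1 and without Hif1a-/- array 1, with negative differences in each case, and Erg, Sox4, Id2 and Meis1 kept theirs.

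**Figure D4:**
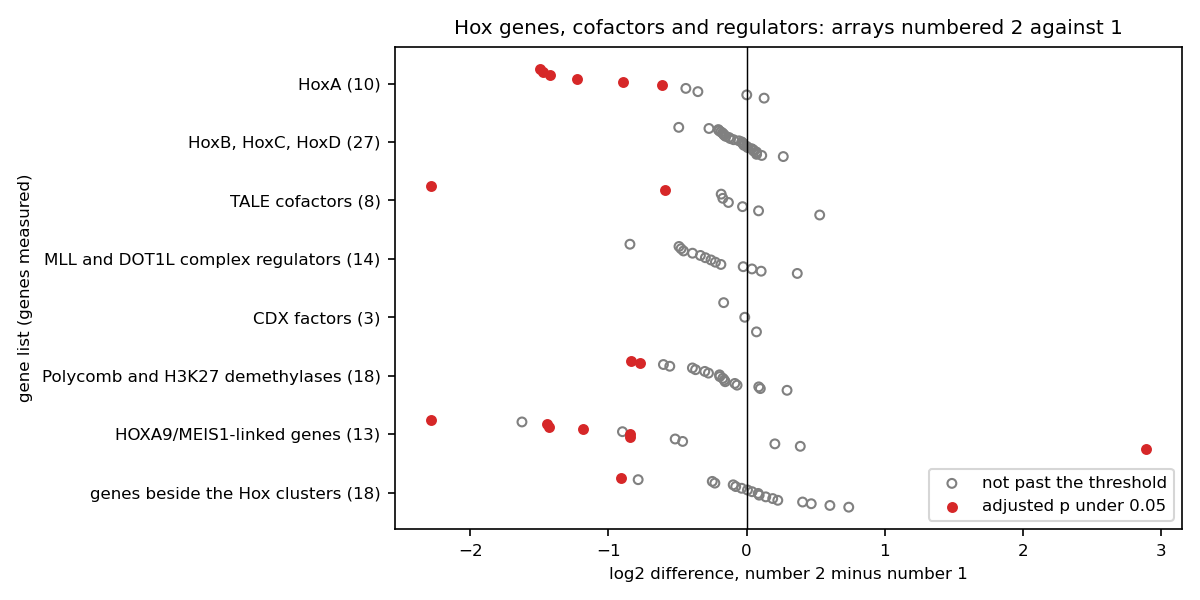
Log2 difference between arrays numbered 2 and 1 (x axis) for each measured gene of 8 lists (y axis), with genes past an adjusted p of 0.05 in limma in red and the rest as open circles. HoxA holds 6 red points of 10, the other Hox clusters 0 of 27, and the genes linked to HOXA9 and MEIS1 hold 6 on the lower side and Id2 on the higher side.

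No Hox gene differed past the threshold between the genotypes, the comparison the series was made for. In limma 0 of 37 passed an adjusted p of 0.05, beside 0% of all genes, and 0 had an unadjusted p under 0.05, beside 0.727% of all genes. The smallest unadjusted p was 0.136, for Hoxb7. The median difference, Hif1a-/- minus WT, was −0.01 log2 units over Hox genes and 0.00 over all genes. This does not show that the Hox genes are equal in the genotypes, as the intervals of the HoxA genes were wide.

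Among the lower means, Hoxa9 differed by −0.43 (SE 0.77, 95% interval −2.58 to 1.73). Its values, given above, put WT array 2 between the Hif1a-/- arrays, and the difference was −0.08 in number 1 and −0.77 in number 2. Hoxb4 differed by −0.24 (interval −1.01 to 0.52), with −0.38 in number 1 and −0.11 in number 2. Hoxa5 differed by −0.23 (interval −2.30 to 1.85), with −0.22 and −0.23. All 3 overlapped between the genotypes, and their directions turned when 1 array was left out. Without WT array 1 the differences were 0.15, 0.071 and 0.51.

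Among the higher means, Hoxb7 gave 8.24 and 8.21 in WT and 8.47 and 8.39 in Hif1a-/-. The 2 genotypes did not overlap, and the difference was 0.20 (SE 0.11, interval −0.10 to 0.51, unadjusted p = 0.136 in limma). Hoxb9 gave 8.82 and 8.52, and 8.84 and 8.84 (difference 0.17, SE 0.15). Hoxc4, of a cluster with no gene above the bar, gave 6.46 and 6.35, and 6.70 and 6.44 (difference 0.17, SE 0.15). Adjusted p-values of all of these were 0.9998 in limma.

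Within HoxA, 9 of 10 genes had a lower mean in Hif1a-/-, with 0 of 10 free of overlap. The cluster's median was −0.14, with −0.21 within number 1 and −0.10 within number 2. HoxB had a median of 0.06, HoxC of 0.02 and HoxD of 0.00. The genotypes did not overlap for 10 Hox genes, with Hif1a-/- higher in 6 (Hoxb1, Hoxb7, Hoxb9, Hoxb13, Hoxd8 and Hoxd12) and lower in 4 (Hoxb2, Hoxb6, Hoxd1 and Hoxd9). The shares over all genes were 16.1% and 8.33%. None of the cofactors or regulators listed above passed between the genotypes, with 0 at an unadjusted p under 0.05 in limma. Meis1 differed by −0.43 (SE 1.15) and Kmt2a by 0.11. Marker lists moved with the genotype as well. All 9 measured B cell genes had a higher mean in Hif1a-/-, with a summed linear signal of 9329 to 9508 in WT and 13894 to 22665 in Hif1a-/-, and 5 had an unadjusted p under 0.05 in limma with none past the adjusted threshold. All 10 LSK and stem cell genes had a lower mean in Hif1a-/-, with 0 at that unadjusted threshold. Their part in the Hox values was not tested.

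**Figure D5:**
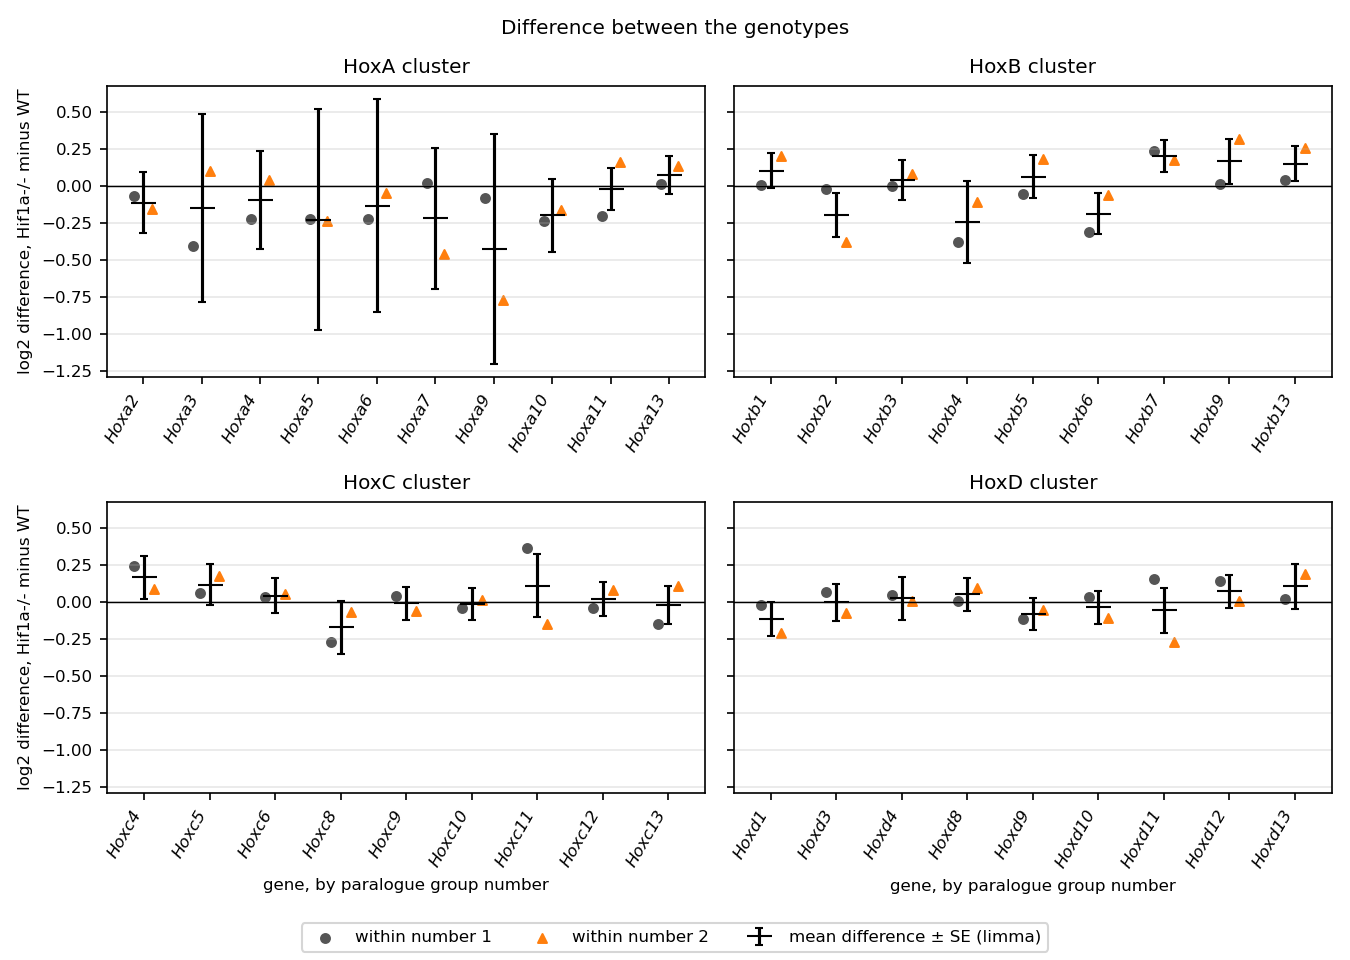
Log2 difference, Hif1a-/- minus WT (y axis), for the 37 Hox genes by cluster (x axis). Grey circles are the difference within number 1, orange triangles within number 2, and black bars the limma mean with its SE. The widest error bars are those of Hoxa3, Hoxa5, Hoxa6 and Hoxa9, whose signals within a genotype lie farthest apart, and no gene passed the threshold.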

How the data were processed

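The authors deposited log2 signals per probe set. The submitters' processing notes name RMA and Affymetrix Expression Console 1.1. The values, from 3.08 to 14.88, set the log base. RMA normalizes arrays to a common distribution, so a change shared by all genes would be removed. Of 35556 probe sets, 21789 had exactly 1 symbol in the platform annotation, and the brightest of a gene was kept, which gave 19938 genes. The table held 0 columns of other samples.

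Genotypes, and array numbers, were compared in R 4.3.3 by limma 3.58.1 (lmFit and eBayes, two-sided, no covariates), with Benjamini-Hochberg adjustment over all genes and no filter. p-values measure the spread between these arrays. In the comparison of numbers each group holds a WT and a Hif1a-/- array, so the spread within it includes the genotype difference. In the comparison of genotypes it includes the difference between the numbers. The steps were tested on simulated data. By rule, Hox genes above the reference on all arrays, up to 3 per direction with the largest differences, and in other lists the 3 smallest p-values per direction at most, were named. The other HoxA genes, Hoxb5, further called genes of the lists, the genes flanking HoxA and the noncoding transcripts were named after their values were seen. Members and lists were chosen with earlier results of these data known. Sequences are from RefSeq (GRCm38.p6), and a build for the array is not given in the sources used.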

Additional observations from a re-analysis of the deposited data

How the results depend on the processing

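The count of Hox genes called between the genotypes was 0 under each alternative run. No paired analysis was used in the main fits, since nothing in the labels says that a number marks a shared animal or day. The differences between array 1 and array 2 correlated at 0.67 over genes between the genotypes. With the replicate number as a block the genotype fit called 0 Hox genes, and the fit of the number with the genotype called 5 in place of 6. The median genotype difference of −0.01 was −0.067 under quantile normalization, −0.021 under median centring, −0.074 under cyclic loess and −0.11 over the 10 Hox genes left without the dimmest 40% of genes. It ran from −0.047 to 0.086 when each array was left out. The genotype difference of Hoxa9 ran from −1.35 to 0.49, that of Hoxb4 from −0.56 to 0.071 and that of Hoxa5 from −0.97 to 0.51.

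Between the numbers, the count of 6 was 2 over every probe set and 2 to 9 with an array left out. The median of −0.12 was −0.077 under cyclic loess, −0.55 without the dimmest genes and −0.14 to −0.077 with an array left out. The difference of Hoxb2 ran from −0.077 to 0.30. The count of 1 gene above the reference range was 2 at the 90th percentile, 0 against the highest reference signal, 9 against olfactory receptor genes, 3 against the median of all genes and 1 to 2 with an array left out. The cause of these changes was not tested. Few arrays and dim probe sets limit what could be detected.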

Other observations

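Of 18 measured genes that flank the Hox clusters, 1 passed between the array numbers in limma, beside 6.74% of all genes, a share near that background. This was Calcoco1 beside HoxC, which was 1.88-fold lower in number 2 (adjusted p = 0.0137), and lost its call without WT array 1 or Hif1a-/- array 1. Beside HoxA, Skap2 differed by 0.60 (SE 0.15, adjusted p = 0.0888), Hibadh by 0.01, Evx1 by −0.08 and Snx10 by −0.10, where Hoxa9 differed by −1.49. Evx1 belongs to the background list of homeobox genes. Of the 18 flanking genes, 5 were below the median of the reference genes on every array, where a fall is hard to see. Nfe2, an erythroid and megakaryocyte factor gene beside HoxC, differed by −0.78 (adjusted p = 0.0797), and Lnpk beside HoxD by 0.74 (adjusted p = 0.0592). The probe set that Hoxb8 and Hoxb7 share gave 7.08 and 7.12 in WT and 7.17 and 7.22 in Hif1a-/-.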
